A study of Rattus norvegicus with 9 samples.

Results

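The 4 miRNAs miR-146a-5p, miR-146b-5p, miR-155-5p and miR-21-5p were followed in rat serum. They were taken by name from the deposited table of miRNA counts, after removal of the species prefix, and make up 4 of its 567 miRNAs. The series holds 9 small RNA libraries of serum from wild-type adult male Wistar rats. The 3 Control libraries were set against 3 libraries of an early group (EPD), whose rats received the complex I inhibitor rotenone by daily intraperitoneal injection at 2 mg per kg for 10 days, and 3 of a late group (LPD), injected for more than 40 days until a terminal stage. What the controls received is not stated, and their treatment label is worded like that of the treated rats. Rotenone is used to model Parkinson's disease because it damages dopaminergic neurons, but it inhibits complex I in every tissue it reaches.

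All 4 miRNAs belong to the response of cells to inflammatory signals. NF-kB switches on the miR-146 genes, whose product represses the adaptors TRAF6 and IRAK1 upstream of NF-kB and so damps the signal. miR-155 is cut from a transcript induced by NF-kB and AP-1 in macrophages and lymphocytes and represses SOCS1, a brake on cytokine signalling. miR-21 is induced by AP-1 and STAT3 in many cell types and represses PDCD4, an inhibitor of translation. In serum such miRNAs travel in vesicles or bound to proteins, and they come from blood cells, endothelium and solid tissues alike.

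The mature sequences show which of the 4 can be confused with each other and which can share targets. They were found for 4 of 4 members in RefSeq (build GRCr8) and are written from the 5′ end, with the seed, bases 2 to 8, in capitals.
miR-146a-5p: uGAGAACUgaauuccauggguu
miR-146b-5p: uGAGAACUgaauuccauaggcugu
miR-155-5p: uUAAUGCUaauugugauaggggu
miR-21-5p: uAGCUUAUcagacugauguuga
The miR-146 pair has 1 seed. Counted from the 5′ end, miR-146b-5p departs from miR-146a-5p by G18A and U21C over the 22 bases they share, and it has 2 more bases at its 3′ end. How reads that fit both were assigned is not stated in these sources. The other members have seeds of their own. On GRCr8, which is not the build named in the submitters' processing notes, the mature miR-146a-5p lies at chr10:28350053-28350074 on the minus strand, inside an unnamed long non-coding RNA gene, and miR-146b-5p at chr1:255144874-255144897 on the plus strand, overlapping the protein-coding gene C1h10orf95. miR-155-5p lies at chr11:37261117-37261139 on the plus strand in Mir155hg, its host non-coding gene. miR-21-5p lies at chr10:71902653-71902674 on the minus strand, between Tubd1 and Vmp1.

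The libraries differed in depth with the groups. Control and EPD libraries held 1108167 to 1668807 counts, and LPD libraries 132609 to 305019. Only 3 to 39 miRNAs of an LPD library had 1 to 9 counts, against 127 to 157 elsewhere. From the number of miRNAs detected, 1 molecule was estimated to stand for 12.3 to 49.1 counts in LPD and for 1.07 to 3.09 in the other libraries. Levels are therefore given as CPM, counts relative to the size of the library after TMM scaling (which sets libraries to a common level by the bulk of their miRNAs), and the LPD levels of the 4 members are given with their estimated molecules. Lower depth and the late group cannot be told apart. Among the controls, replicate 2 stood apart by its hepatocyte miRNAs: the summed CPM of 4 hepatocyte markers ranged from 29522 to 696990 over the Control libraries, against 21043 to 56412 in EPD and 21543 to 46856 in LPD.

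miR-146a-5p, the most studied brake on NF-kB, was an abundant serum miRNA. It had 26225, 44893 and 28460 CPM in Control 1, 2 and 3, and 29864, 54038 and 38872 CPM in EPD 1, 2 and 3. In LPD 1, 2 and 3 it had 14574, 12507 and 17900 CPM, from 4400, 2780 and 2715 counts. The LPD group lay wholly below the other libraries, whereas Control and EPD overlapped. These LPD counts stand for an estimated 120, 56.7 and 220 molecules. Its rank by abundance within a library was 7 to 8 in Control, 4 to 9 in EPD and 7 to 14 in LPD.

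Across the groups its means were 40925 ± 12217 CPM in EPD, 33193 ± 10194 in Control and 14994 ± 2721 in LPD (SD, n = 3). The fall in LPD was 2.21-fold against Control (log2 fold change -1.15, SE 0.32, 95% interval -1.87 to -0.42, adjusted p = 0.0200, edgeR's quasi-likelihood test over 294 miRNAs). Against EPD it fell 2.73-fold (log2 fold change -1.45, SE 0.32, 95% interval -2.18 to -0.72, adjusted p = 0.00842). EPD against Control gave 0.30 (SE 0.32, 95% interval -0.41 to 1.02, adjusted p = 0.995), so neighbours at the top of this order did not differ beyond their spread. The fall against EPD passed in all 18 alternative settings and libraries left out. That against Control passed in 11 of 18 and was lost without Control 2 (-0.72, adjusted p = 0.0755), LPD 1 (-0.97, adjusted p = 0.0901) or LPD 2 (-1.01, adjusted p = 0.0829). Without Control 2 the early value was 0.69 (adjusted p = 0.575), without EPD 1 0.56 (adjusted p = 0.995) and without EPD 2 0.06 (adjusted p = 0.994).

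miR-146b-5p, with the same seed and a gene of its own, had 18.2 to 42.2 times fewer counts per library. It had 1299, 1477 and 1204 CPM in the Control libraries, 1498, 1280 and 1226 CPM in EPD and 682, 688 and 831 CPM in LPD. Again all 3 LPD libraries lay below the other 6, and Control and EPD overlapped. As a share of counts the gap was narrow, with 0.0950% in LPD 3 and 0.0987% in Control 2. The means were 1334 ± 144 CPM in EPD, 1327 ± 138 in Control and 734 ± 84.0 in LPD (SD, n = 3). The LPD values came from 206, 153 and 126 counts, an estimated 5.62, 3.12 and 10.2 molecules, so by this estimate each rests on very few molecules.

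In LPD miR-146b-5p was 1.81-fold lower than in Control (log2 fold change -0.85, SE 0.28, 95% interval -1.49 to -0.22, adjusted p = 0.0385, edgeR) and 1.82-fold lower than in EPD (log2 fold change -0.86, SE 0.28, adjusted p = 0.0374). Both calls were weakly held. The one against Control passed in 1 of 18 alternatives, DESeq2, and was lost whichever library was left out (adjusted p from 0.0566 to 0.180). The one against EPD passed in 4 of 18, and was lost without any EPD or LPD library (0.0635 to 0.168). EPD against Control gave 0.01 (SE 0.28, 95% interval -0.62 to 0.63, adjusted p = 0.995), and its sign turned in 5 of 18 alternatives.

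**Figure D1:**
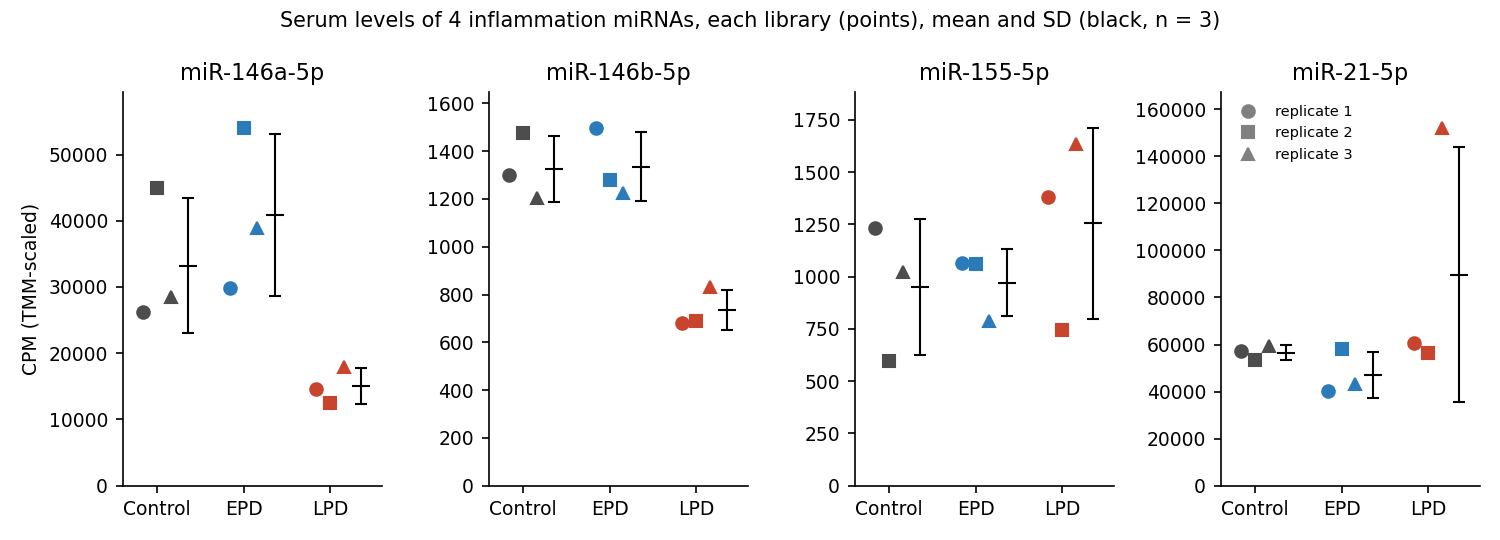
CPM (vertical axes, linear from 0) of the 4 miRNAs in each library (points, shaped by replicate number), with mean and SD of each group in black. The LPD points of miR-146a-5p, at 12507 to 17900 CPM, and of miR-146b-5p, at 682 to 831 CPM, lie below all other points, and 1 LPD library carries the high mean of miR-21-5p.

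miR-155-5p, the induced miRNA of activated macrophages and lymphocytes, was the scarcest member in Control and EPD. It had 1234, 597 and 1021 CPM in the Control libraries, 1067, 1059 and 787 CPM in EPD and 1381, 747 and 1635 CPM in LPD. The 3 groups overlapped, and the lowest value was that of Control 2. The LPD values came from 417, 166 and 248 counts, an estimated 11.4, 3.38 and 20.1 molecules. Means were 950 ± 324 CPM in Control, 971 ± 160 in EPD and 1254 ± 457 in LPD (SD, n = 3).

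None of the comparisons of miR-155-5p passed. EPD against Control gave a log2 fold change of 0.03 (SE 0.40, 95% interval -0.88 to 0.95, adjusted p = 0.995), with a sign that turned in 3 of 18 alternatives. LPD against Control gave 0.40 (SE 0.41, 95% interval -0.52 to 1.32, adjusted p = 0.485), and LPD against EPD 0.37 (SE 0.41, 95% interval -0.55 to 1.29, adjusted p = 0.531). These intervals leave room for changes of up to about 1.3 log2 units in LPD. LPD against Control stood at 0.70 without LPD 2 and at 0.28 without Control 2.

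miR-21-5p, the growth and injury miRNA of many tissues, was the most abundant member in every library. It had 57036, 53239 and 59417 CPM in the Control libraries. Their close CPM rest on the TMM factor of Control 2 (0.669), since as shares of counts the controls held 6.32, 3.56 and 6.69% (5.52 ± 1.71%, SD, n = 3). It had 40085, 58240 and 43100 CPM in EPD. In LPD it had 60707, 56319 and 152125 CPM, and the 23074 counts of LPD 3 made up 17.4% of that library (Wilson interval 17.2 to 17.6%). The LPD values stand for an estimated 500, 255 and 1871 molecules. LPD 3 stood far above all other libraries, and the other LPD libraries lay near the Control level. Means were 56564 ± 3116 CPM in Control, 47142 ± 9729 in EPD and 89717 ± 54091 in LPD (SD, n = 3).

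For miR-21-5p EPD against Control gave a log2 fold change of -0.26 (SE 0.39, 95% interval -1.14 to 0.61, adjusted p = 0.995). LPD against Control gave 0.67 (SE 0.39, 95% interval -0.22 to 1.55, adjusted p = 0.226), and 0.28 without LPD 3. LPD against EPD gave 0.93 (SE 0.39, 95% interval 0.04 to 1.81, unadjusted p = 0.0415, adjusted p = 0.0977). It passed in 3 of 18 alternatives, RLE scaling (1.15, adjusted p = 0.0359), DESeq2 (1.15, adjusted p = 0.0151) and without LPD 1 (1.16, adjusted p = 0.0465), and stood at 0.44 without LPD 3. The early value was -0.08 without EPD 1 and -0.44 without EPD 2.

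**Figure D2:**
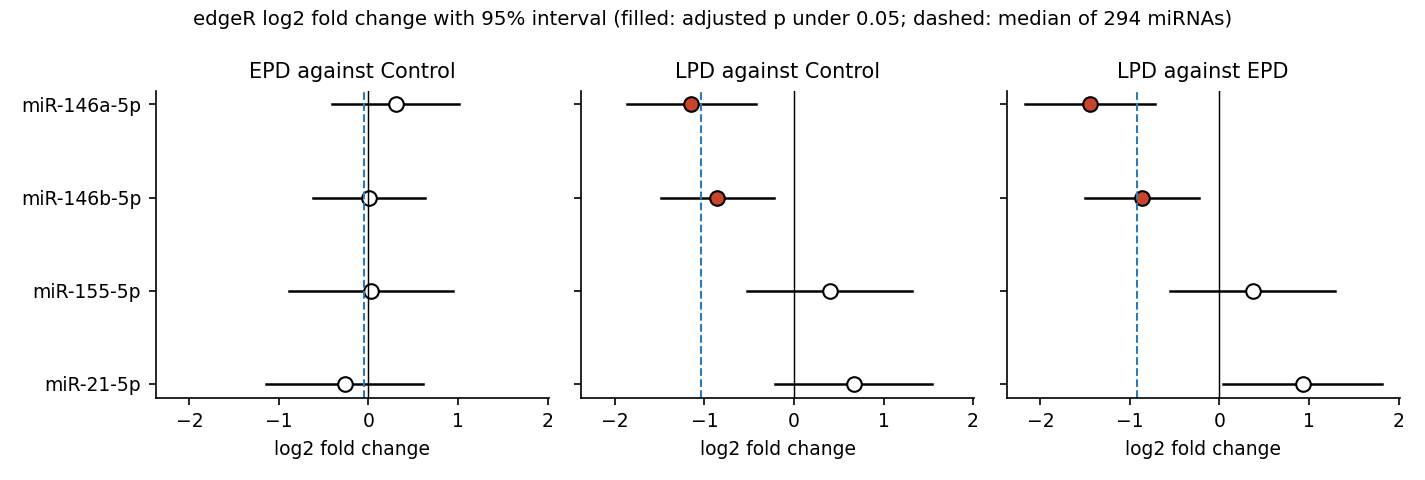
Log2 fold change (horizontal axes) of each miRNA in the 3 comparisons, with its 95% interval as a line. Filled points passed at an adjusted p of 0.05 and the dashed line is the median over the 294 tested miRNAs. The filled points are the miR-146 pair in both LPD comparisons, at -0.85 to -1.45.

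Over all tested miRNAs, 0 of 294 (0%) were called in EPD against Control by edgeR, with 11 at an unadjusted p under 0.05, and 0 of the 4 members. There 4.76% did not overlap and were higher and 8.16% did not overlap and were lower, beside 0 of 4 members. DESeq2 called 1 miRNA and limma-voom 0 there. In LPD against Control 32.7% of the 294 were called lower and 4.42% higher, beside 2 and 0 of the 4 members. In LPD against EPD 32.7% were called lower and 4.08% higher, again beside 2 and 0. DESeq2 called 26 miRNAs higher and 94 lower in LPD against Control, where edgeR called 13 and 96, and 31 and 91 in LPD against EPD, where edgeR called 12 and 96. LPD lay wholly below Control in 41.8% of the miRNAs and wholly above it in 6.46%, and below and above EPD in 45.6% and 6.80%, beside 2 and 0 of the 4 members in each. A lower level in LPD was thus common among the tested miRNAs. The median log2 fold change of the members was -0.23 in LPD against Control and -0.25 in LPD against EPD, against -1.04 and -0.92 over all tested miRNAs, many of which had no count in LPD. Of the 124 miRNAs with counts in all 9 libraries, as all 4 members had, 21.8% were called lower in LPD against Control and 23.4% in LPD against EPD, with medians of -0.21 and -0.09. RLE scaling moved the median over the 294 miRNAs from -1.04 to -0.83 in LPD against Control, and miR-146a-5p from -1.15 to -0.89 with it (adjusted p = 0.0619). Scaling by library totals gave a median of -0.86, and -0.92 for miR-146a-5p (adjusted p = 0.0696). The 2 LPD comparisons share the LPD libraries, and those against Control share the controls.

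**Figure D3:**
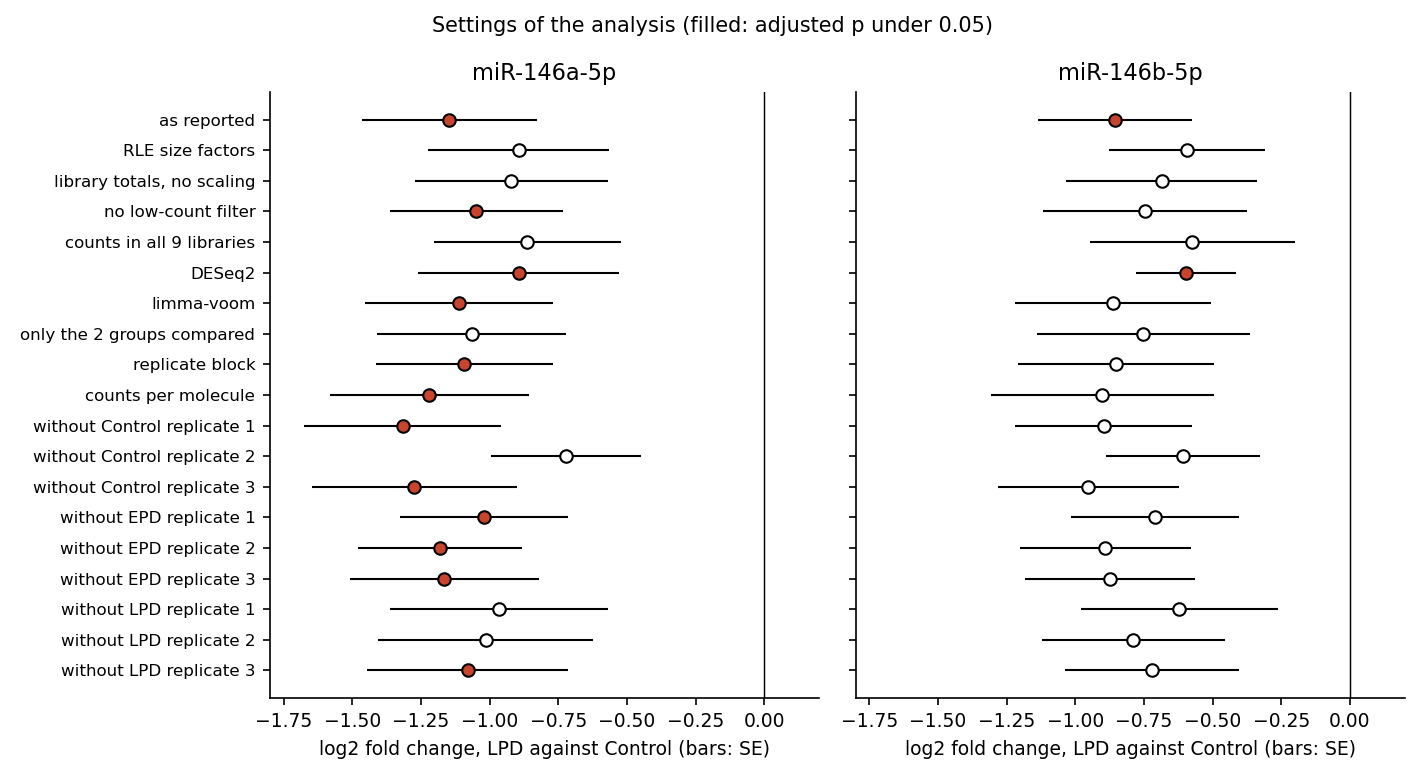
Log2 fold change of LPD against Control (horizontal axes, bars are SE) for miR-146a-5p and miR-146b-5p under each setting of the analysis (vertical axis). All points lie below 0, from -1.32 to -0.72 for miR-146a-5p and from -0.95 to -0.57 for miR-146b-5p, and filled points, those with an adjusted p under 0.05, are fewer for miR-146b-5p.

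Ratios of counts within a library need no scaling between libraries. For each count of miR-21-5p there were 0.460, 0.843 and 0.479 counts of miR-146a-5p in the Control libraries, 0.745, 0.928 and 0.902 in EPD and 0.240, 0.222 and 0.118 in LPD. LPD lay below both other groups, which overlapped. The ratio of miR-146b-5p to miR-21-5p ran from 0.0203 to 0.0277 in Control, from 0.0220 to 0.0374 in EPD and from 0.00546 to 0.0122 in LPD, again without overlap of LPD. Relative to miR-23a-3p, often used as a serum reference, miR-146a-5p stood at 3.17 to 5.08 in Control, 4.01 to 5.82 in EPD and 1.56 to 1.95 in LPD, and miR-146b-5p at 0.132 to 0.215, 0.131 to 0.201 and 0.0730 to 0.0905. These ratios do not use TMM, but they also move with their reference, and the share of all miRNAs with lower ratios in LPD was not taken. With library totals in place of TMM, edgeR called neither of the pair in LPD against Control (adjusted p = 0.0696 for miR-146a-5p and 0.171 for miR-146b-5p). In LPD against EPD it called miR-146a-5p (adjusted p = 0.0162) but not miR-146b-5p (0.122). The ratio of miR-155-5p to miR-21-5p overlapped in all groups (0.0112 to 0.0216, 0.0182 to 0.0266 and 0.0107 to 0.0228). Within the pair, miR-146a-5p exceeded miR-146b-5p by 20.2 to 30.4 times in Control, 19.9 to 42.2 times in EPD and 18.2 to 21.5 times in LPD, with overlap between all groups. Counts of different miRNAs also reflect how well each is ligated and amplified, so the ratios compare libraries rather than amounts.

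**Figure D4:**
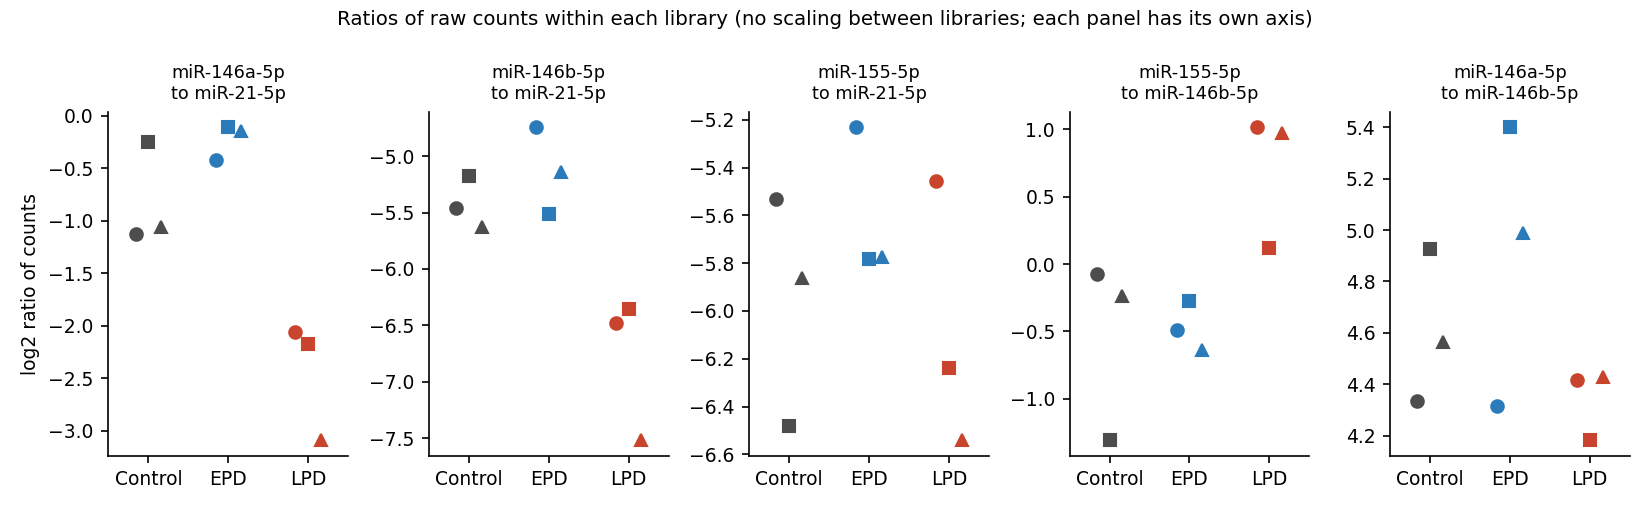
Log2 ratios of raw counts of named pairs (vertical axes, each panel with its own range) in each library. The LPD points lie below the others for miR-146a-5p and miR-146b-5p to miR-21-5p, above them for miR-155-5p to miR-146b-5p, and overlap them for the other two ratios, miR-155-5p to miR-21-5p (lowest in LPD 3) and miR-146a-5p to miR-146b-5p (lowest in LPD 2).

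Most hairpins gave almost only the listed arm. miR-21-3p made up 0.0371 to 0.0670% of the mir-21 counts in Control and 0.0408 to 0.0608% in EPD. It had 23 counts in LPD 3 and none in LPD 1 and LPD 2, where 1 molecule was estimated at 36.7 and 49.1 counts. Its change could not be told from 0 in LPD against Control (log2 fold change 0.78, 95% interval -2.61 to 4.16, adjusted p = 0.720, edgeR). miR-146b-3p had 4 to 6 counts per Control library, 8, 21 and 6 in EPD and none in LPD, and miR-146a-3p 2 to 5 in Control, 7, 11 and 0 in EPD and none in LPD. Both were too scarce to be tested. No row of the counts is named miR-155-3p.

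Other miRNAs of the inflammatory response were read from a list of 14, of which 14 were in the table and 13 could be tested. In EPD against Control 0 of 13 passed (median log2 fold change 0.17, over all miRNAs -0.05). In LPD against Control 3 were called lower, 1 higher and 9 did not pass (median -0.61), beside 32.7% lower, 4.42% higher and a median of -1.04 over all miRNAs. In LPD against EPD 3 were called lower, 0 higher and 10 did not pass (median -0.63), beside 32.7%, 4.08% and -0.92. The share of the list called lower was no larger than that over all miRNAs. miR-125b-5p, which represses TNF and is abundant in fibroblasts and vessel wall, fell in both. Its level was 13621 ± 1704 CPM in Control, 12622 ± 1392 in EPD and 2179 ± 398 in LPD (SD, n = 3). The change was -2.64 (SE 0.25, adjusted p = 5.72e-04) against Control and -2.53 (SE 0.25, adjusted p = 7.91e-04) against EPD, and passed in 18 of 18 alternatives each. Its LPD values came from 669, 392 and 388 counts, an estimated 18.2, 7.99 and 31.5 molecules, so they too rest on few molecules. miR-223-3p, made in myeloid cells and megakaryocytes, had 21959 ± 11461 CPM in Control and 49559 ± 12807 in LPD (a change of 1.17 log2 units, SE 0.39, adjusted p = 0.0418), and passed in 9 of 18 alternatives. Its call was lost when LPD 1, LPD 2, EPD 2, EPD 3, Control 1 or Control 3 was left out (adjusted p up to 0.138), and the change was 1.86 without Control 2. The CREB-induced miR-132-3p and miR-181c-5p were called lower but had no count in LPD and only 10.3 ± 3.46 and 32.2 ± 19.7 CPM in Control, less than 1 estimated molecule of an LPD library, 81.3 to 221 CPM. miR-132-3p passed in 10 of 18 alternatives against Control, missed in 5 and had no value in 3, with no call without LPD 1, LPD 2 or LPD 3. For miR-181c-5p against Control 16 of 18 passed, 1 missed and 1 had no value. miR-221-3p, induced by NF-kB and AP-1, had 2063 ± 1170 CPM in Control and 773 ± 461 in LPD and did not pass (-1.42, SE 0.56, adjusted p = 0.0799). Its LPD values stand for an estimated 5.04, 1.88 and 15.9 molecules.

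**Figure D5:**
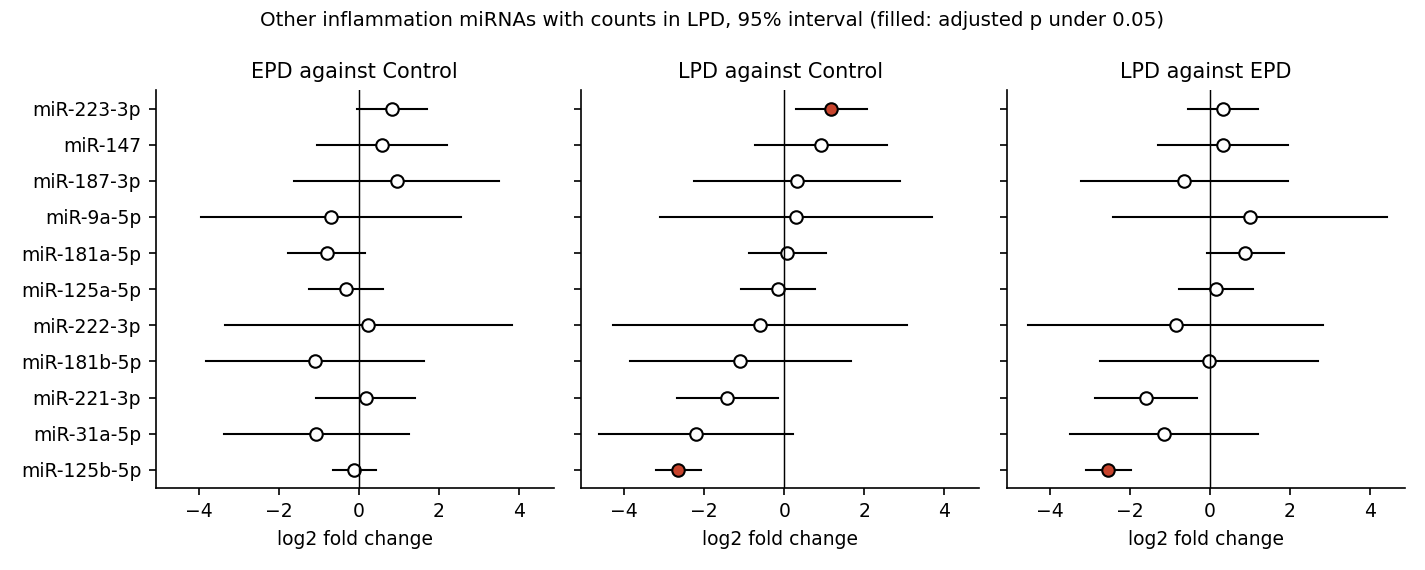
Log2 fold change (horizontal axes) with 95% interval for the 11 listed inflammation miRNAs that had counts in LPD and were tested. Filled points, with an adjusted p under 0.05, are miR-223-3p in LPD against Control and miR-125b-5p in both LPD comparisons.

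Markers of blood cells were read beside these values. In EPD against Control 0 of 5 leukocyte, 0 of 4 erythrocyte and 0 of 4 platelet markers were called. In LPD against Control calls went both ways, with 1 higher and 1 lower for leukocytes, 1 and 0 for erythrocytes and 1 and 2 for platelets, beside 4.42% higher and 32.7% lower over all miRNAs. The higher call for leukocytes and that for platelets are the same miRNA, miR-223-3p, which is on both lists. The summed CPM of 5 leukocyte markers was 48911 to 59426 in Control, 76100 to 94532 in EPD and 72852 to 99246 in LPD. The largest part of this sum was miR-223-3p, with means of 21959 CPM in Control, 39205 in EPD and 49559 in LPD. Among the 5 markers miR-342-3p was called lower in LPD against Control (log2 fold change -0.89, SE 0.28, adjusted p = 0.0308) and miR-223-3p higher, and 3 of 5 did not pass. The LPD values of miR-342-3p stand for an estimated 22.3, 9.52 and 25.8 molecules. The sum of 4 erythrocyte markers was 84512 to 169054 in Control, 153163 to 394536 in EPD and 235822 to 372634 in LPD, and that of 4 platelet markers 108504 to 136482, 109996 to 205373 and 66450 to 104264. Most of the erythrocyte sum was miR-16-5p, with means of 128014 CPM in Control, 216430 in EPD and 283010 in LPD. Control and EPD overlapped in the erythrocyte and platelet sums. No marker of these 3 lists was at 0 in all libraries of a group. For 4 vessel wall and fibroblast markers the sums were 26966 to 55205 in Control, 17743 to 24763 in EPD and 31798 to 40946 in LPD. Most of this sum was miR-143-3p, with means of 33281, 18879 and 36025 CPM. In each LPD comparison 2 of the 4 markers rose and 2 fell. Against Control 0 were called, and against EPD only miR-143-3p, higher (0.93, adjusted p = 0.0415, edgeR), beside 4.08% over all miRNAs. miR-145-5p had means of 2876, 1893 and 675 CPM and did not pass. The part of these cells in the fall of miR-146a-5p was not tested, and in serum fewer cells of a type and less miRNA released per cell cannot be told apart.

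The miRNAs most like each member over the 9 libraries were taken by Pearson's r of log2 CPM among 121 others with counts in every library. This is a description, and libraries of 1 group share their depth range. For miR-146a-5p they were miR-29a-3p (r = 0.961), miR-221-3p (0.925) and miR-29b-3p (0.905). miR-29a-3p, which represses collagens, had 39184 CPM in Control, 58032 in EPD and 11006 in LPD. For miR-146b-5p they were miR-27b-3p (0.959), miR-125b-5p (0.956) and miR-19b-3p (0.949), each called lower in LPD against Control. They were chosen by likeness to a miRNA that was lower in LPD, so these calls add no separate result. miR-361-5p came first for miR-155-5p (0.833) and for miR-21-5p (0.855), and had 518 CPM in Control, 436 in EPD and 782 in LPD. miR-155-5p was followed by miR-144-5p (0.722) and miR-20a-5p (0.605), and miR-21-5p by miR-340-5p (0.845) and miR-101a-3p (0.799). Between miR-146a-5p and miR-146b-5p r was 0.872 over 9 libraries and 0.0727 over the 6 of Control and EPD, so the likeness of the pair rested on the LPD libraries.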

How the data were processed

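Serum small RNA was prepared with a miRNeasy serum kit and the QIAseq miRNA kit, per the labels' protocols. The authors deposited raw counts for 567 mature miRNAs, as a table of the series and as 9 single tables, between which 0 values differed. Per the submitters' processing notes the genome was mRatBN7.2. No aligner or counter is named in these sources, nor whether the kit's molecular identifiers were used, so PCR copies may be counted. Wilson intervals of shares cover only counting error, and intervals of fold changes rest on the variation between libraries. Groups and replicate numbers came from the sample titles.

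The 294 miRNAs that passed filterByExpr by group (minimum count 10, minimum total 15) were scaled by TMM. The minimum count holds at the median library size, so fewer counts suffice in the shallower LPD libraries. An miRNA could pass with no count in LPD. All 3 groups were fitted without covariates in edgeR 4.0.16 (robust quasi-likelihood, R 4.3.3), with Benjamini-Hochberg adjustment over the 294 and a threshold of 0.05. On simulated data with the spread of all 9 libraries the fit missed most changes, smaller ones included. A simulation set up after that used larger changes and the spread of Control and EPD, without that of LPD, and there the fit recovered most. An miRNA that was not called may therefore still differ. CPM used the TMM sizes. SE was the log2 fold change over the root of F. Molecules were estimated from the number of detected miRNAs, given the mean profile of Control and EPD. The estimate for an LPD library is too low if miRNAs are missing there for a reason other than sampling. The 18 alternatives were RLE scaling, library totals, no filter, only miRNAs with counts in all 9 libraries, DESeq2 1.42.0, limma-voom 3.58.1, only the groups compared, the replicate number as a block, counts per molecule, and each library left out. Nothing says that the libraries came from separate animals, so p-values measure only how these samples vary, which may be technical. The column labels of the EPD and LPD libraries share their sample numbers. Whether the same rats were sampled early and late is not stated, and the main fit treated these libraries as unpaired.

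The named miRNAs were the 4 members, their opposite arms, every called miRNA of the inflammation list, and the 3 most correlated miRNAs with at least 50 CPM in Control. miR-23a-3p, miR-342-3p and the marker sums were given as context. The members and lists were chosen with earlier results of these data known.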

Additional observations from a re-analysis of the deposited data

Results flagged for a closer look

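The change of miR-146a-5p from Control differed between the late and the early group by -1.45 on the log2 scale, and that of miR-146b-5p by -0.86. These are the direct comparisons of LPD with EPD, in which the controls cancel (adjusted p = 0.00842 and 0.0374, edgeR over 294 miRNAs). All 3 LPD libraries lay below all 3 EPD libraries for both, as did 45.6% of the 294 miRNAs. LPD libraries had 132609 to 305019 counts against 1136537 to 1668807 in EPD, and the part of depth in the difference was not tested. With counts divided by the estimated counts per molecule the values were -1.55 (adjusted p = 0.0125) and -0.93 (adjusted p = 0.148).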

How the results depend on the processing

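For miR-146a-5p, LPD against EPD passed in 18 of 18 alternatives (-1.58 to -1.13). LPD against Control kept its sign and was no longer called with RLE scaling (-0.89), library totals (-0.92), miRNAs with counts in all 9 libraries (-0.86) and only the compared groups (-1.07), and ran from -1.32 to -0.72 with libraries left out. For miR-146b-5p, in the order RLE, totals, no filter, counts in all 9 libraries, limma-voom, only the compared groups and counts per molecule, the values that missed the threshold were -0.59, -0.69, -0.75, -0.57, -0.86, -0.75 and -0.90 against Control and -0.57, -0.76, -0.90, -0.53, -0.88, -0.71 and -0.93 against EPD. Leaving out libraries gave -0.95 to -0.61 and -0.96 to -0.70. Whether the replicate numbers pair the libraries is not stated. Deviations of same-numbered libraries correlated by -0.0959 to 0.0826, and those of other pairs by -0.100 to 0.174. With 3 libraries a group these values cannot decide it. Under a replicate block miR-146b-5p stood at -0.85 against Control (adjusted p = 0.110) and -0.86 against EPD (adjusted p = 0.102). The block changed no other call of the 4 miRNAs, and it gave 101 calls in each LPD comparison. miR-21-5p, LPD against EPD, passed with RLE scaling (1.15), with DESeq2 (1.15) and in 1 of 9 fits with a library left out (0.44 to 1.16). In EPD against Control, signs turned for miR-146b-5p with RLE (-0.0238), DESeq2 (-0.0228), counts in all 9 libraries (-0.0399) and libraries left out (-0.0167 to 0.22), and for miR-155-5p with counts in all 9 libraries (-0.0379) and libraries left out (-0.0842 to 0.31). The cause was not tested.

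edgeR called 109 of 294 miRNAs in LPD against Control, 108 in LPD against EPD and 0 in EPD against Control. Only the compared groups gave 52 and 67, counts in all 9 libraries (124 tested) 38 and 35, and counts per molecule 35 and 43. In EPD against Control DESeq2 and counts in all 9 libraries called 1 each, and leaving out a library 0 to 1. With libraries left out, the LPD comparisons gave 93 to 140 and 90 to 134 calls. Depth limits miR-146b-5p and miR-155-5p most, which rest on 3.12 to 20.1 estimated molecules in the LPD libraries.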

Other observations

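The order of the scarcer members was turned in LPD. miR-155-5p had fewer counts than miR-146b-5p in all 6 Control and EPD libraries (ratios of 0.950, 0.404 and 0.848 in Control and 0.713, 0.828 and 0.642 in EPD) and more in all 3 LPD libraries (2.02, 1.08 and 1.97). In LPD 2 the counts were 166 and 153, with Wilson intervals of their shares that overlap (0.0679 to 0.0921% and 0.0622 to 0.0854%), and the LPD counts stand for 3.12 to 20.1 estimated molecules.

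The 4 miRNAs together made up 9.51, 6.70 and 10.1% of the counts in Control, 6.36, 13.1 and 8.35% in EPD and 7.66, 7.44 and 19.7% in LPD. Within this sum miR-21-5p took 53.1 to 66.5% in Control, 50.8 to 55.3% in EPD and 78.5 to 88.2% in LPD, and miR-146a-5p 30.6 to 44.8%, 41.2 to 47.1% and 10.4 to 18.8%.

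Control 2, the library rich in hepatocyte miRNAs, had the highest CPM of miR-146a-5p (44893), miR-146b-5p (1477), miR-221-3p (3393) and miR-223-3p (35042) among the controls and the lowest of miR-155-5p (597) and miR-21-5p (53239). As a share of counts its miR-146a-5p, 3.001%, lay between those of Control 1 (2.906%) and Control 3 (3.202%), and its miR-146b-5p was the lowest of the controls (0.0987% against 0.144% and 0.135%).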
